A study of Homo sapiens with 16 samples.

Results

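Aminoacyl-tRNA synthetase genes were followed in U251 and U343 cells, both human glioblastoma cell lines, transfected with a mimic of miR-137 or with a control mimic. The genes were taken by symbol from the gene tables: every symbol made of 1 letter followed by ARS, with or without a closing 2, plus EPRS, FARSA and FARSB. The rule found 35 genes among 20626 in the U343 tables and 33 among 20314 in the U251 tables, since CARS and SARS were listed for U343 only. Of the 35, 19 encode synthetases that work in the cytosol and 16 encode mitochondrial enzymes, with KARS and GARS, which serve both compartments, counted as cytosolic. The mimics were given at 25 nM, and the cells were harvested after 48 hours. RNASeq measured total RNA depleted of ribosomal RNA, and RIPSeq measured the RNA recovered with antibodies against poly(A)-binding protein (PABP). Each combination of cell line, RNA fraction and mimic had 2 libraries, which gives 8 groups and 16 libraries. The sources used here do not say whether the 2 libraries of a group came from separate cultures, so the p-values measure the spread between these libraries, which may be technical. No library of RNA recovered with an unrelated antibody was analysed here.

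Aminoacyl-tRNA synthetases attach each amino acid to its own tRNA and so set the supply of substrates for translation. The cytosol and the mitochondrion mostly use separate enzymes, all encoded in the nucleus, and in the cytosol DARS, EPRS, IARS, KARS, LARS, MARS, QARS and RARS sit with scaffold proteins in the multi-synthetase complex. Genes of cytosolic synthetases are known targets of ATF4, the transcription factor of the amino acid response, and WARS, the tryptophanyl enzyme of the cytosol, is a known interferon-induced gene. A miRNA lowers the RNAs to which its seed pairs, and PABP binds their poly(A) tails. The mimic carries the mature miR-137, shown here as the agent of every comparison, with its seed (bases 2 to 8) in capitals, in the RefSeq sequence of build GRCh38.p14 (minus strand, chr1:98046091-98046113).
hsa-miR-137-3p: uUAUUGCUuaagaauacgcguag

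Counted reads came to 10156675 to 18224061 per library in U251 RNASeq, 22359794 to 30731476 in U251 RIPSeq, 37952273 to 45134766 in U343 RNASeq and 37736206 to 45055184 in U343 RIPSeq. Synthetase genes took 0.484% to 0.625% of these reads in U251 and 0.453% to 0.521% in U343, none was at 0 in any library, and all passed the filter on low counts. Levels are given as CPM (reads scaled to library totals, with TMM factors within a cell line), and they are not compared between genes, since no transcript lengths were used. Libraries of 2 groups stood apart, and the counts that rest on them are given with and without them. In U251 RIPSeq the control libraries differed by a median of 0.659 on the log2 scale over genes, and DARS was at 70.3 CPM in one and 220.1 CPM in the other, while the miR-137 pair of the same experiment differed by a median of 0.0643. In U343 RNASeq, miR-137 replicate 1 lacked the rise of interferon-stimulated genes seen in the other miR-137 libraries. IFIT1, an interferon-induced protein gene, was at 9.40 CPM there, 1757 CPM in miR-137 replicate 2 and 13.2 and 13.2 CPM in the controls. The glioma markers VIM, CD44, NES and SOX2 were present in every library, and GFAP was at 3079 to 7662 CPM in U343 and 3.19 to 32.4 CPM in U251. S100B, also on the glioma list, was low, with group means of 0.215 to 1.72 CPM in U251 and 3.82 to 6.96 CPM in U343. The leukocyte list, PTPRC and CD3E among it, summed to at most 0.955 CPM. The epithelial and endothelial lists summed to 62.0 to 119.7 and 8.92 to 32.5 CPM in U343, led by CDH1 and CDH5. SYT1, the neuronal marker in the tables, was at 10.2 to 34.2 CPM in U251. Some markers moved with the mimic alongside the members. In U343 the endothelial list summed to 21.9 and 32.5 CPM in the RIPSeq controls against 8.96 and 11.2 CPM with miR-137, where CDH5 fell (log2 -1.56, edgeR adjusted p = 7.11e-04), and to 15.4 and 27.1 against 8.92 and 13.7 CPM in RNASeq (CDH5 log2 -0.96, edgeR adjusted p = 0.141). In U251 RNASeq GFAP, S100B, NES, VIM and CD44 were lower (log2 -3.18, -2.92, -1.25, -1.19 and -0.79). In U343 NES was higher in RIPSeq and RNASeq (1.37 and 1.58), CD44 higher in RNASeq (0.61) and GFAP lower in RIPSeq (-0.79). The part of these markers in the results was not tested.

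Some counts cannot be given to a single gene. The library kits did not mark strand, and the spans of MARS, SARS2 and YARS overlap by 63, 189 and 458 bases with DDIT3, MRPS12 and S100PBP, in that order, each on the opposite strand. IARS also shares its span with the small RNA gene SNORA84, and IARS2 with MIR215 and MIR194-1. SARS2 is the most exposed, since MRPS12 held 14032 reads over the U343 libraries against 8885 for SARS2. In the RefSeq annotation of GRCh38.p14, 15 pseudogenes are named after 11 of the members (AARS, CARS, FARSB, GARS, IARS2, KARS, NARS, RARS, TARS2, WARS and WARS2), so reads of these genes may be shared with their copies.

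More synthetase genes were lower than higher after the miR-137 mimic in U251 total RNA and in both U343 fractions. Large shares of all genes also changed, and the counts are read against them. In U251 RNASeq 17 of 33 were lower and 5 higher, beside 29.0% of all genes tested lower and 28.7% higher. In U343 RIPSeq 15 of 35 were lower and 7 higher, beside 27.8% and 28.5%. In U343 RNASeq 6 of 35 were lower and 2 higher, beside 11.7% and 8.31%. In U251 RIPSeq, where the controls disagreed, none was lower and 1, WARS, was higher, beside 0.263% and 0.944%. There 5 members had an unadjusted p under 0.05, for which no share of all genes is given. By DESeq2 QARS was lower and WARS higher there, beside 3.79% and 4.18% of all genes. The median log2 change of the members was -0.28, -0.33, -0.16 and -0.071 in U251 RIPSeq, U251 RNASeq, U343 RIPSeq and U343 RNASeq, beside -0.019, 0.015, 0.0049 and 0.023 over all genes tested. These are edgeR calls at an adjusted p under 0.05, and every change is relative to the scaled library. In such bulk libraries, fewer cells holding an RNA and less of it per cell cannot be told apart. With upper-quartile scaling in U251 RNASeq the median of all genes moved from 0.015 to 0.16, all genes were 23.0% lower and 35.2% higher, and 13 members were lower and 5 higher.

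Single libraries decided some of these counts. Without control replicate 1, U251 RIPSeq gave 22 members lower and 5 higher (35.3% and 32.8% of all genes), and without control replicate 2 it gave 13 lower and 17 higher (34.2% and 40.2%), with the members' median at 0.16 in place of -0.28. Without miR-137 replicate 1, U343 RNASeq gave 9 lower and 5 higher (20.3% and 19.3%), without miR-137 replicate 2 it gave 8 and 4 (19.3% and 18.4%), and without either control it gave none. In the U343 RNASeq fits without a control, the spread came only from the miR-137 pair, whose libraries stood apart. No share of all genes is given for these fits. QARS, for example, had log2 -0.81 without control replicate 1 and -0.63 without control replicate 2. In U251 RNASeq the members lower stayed more numerous than those higher, which became fewer without control replicate 2 or miR-137 replicate 1. The heat map of changes gives them by gene.

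**Figure D1:**
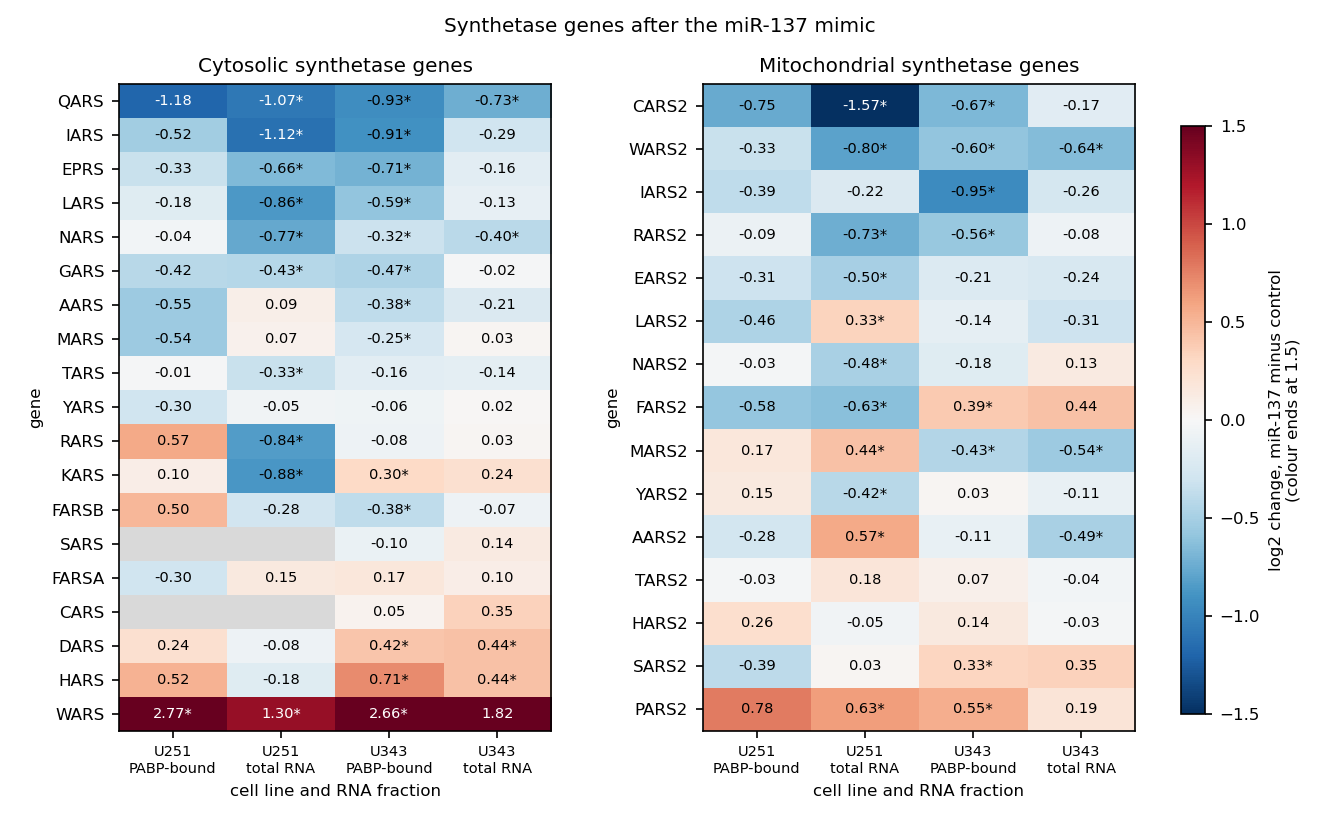
Each cell gives a gene's log2 change (miR-137 minus control, 2 libraries against 2) in one cell line and RNA fraction, blue for lower and red for higher, with a star where the edgeR adjusted p was under 0.05 and grey where the gene was not in the U251 tables. WARS is red in all 4 columns, from 1.30 to 2.77, and QARS is blue in all 4, from -1.18 to -0.73.

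WARS, on chr14:99869878-99912433 of hg18, had the largest rise of all members in each of the 4 comparisons. In U251 PABP-bound RNA it was at 143 and 241 CPM in the control libraries and 1341 and 1372 CPM in the miR-137 libraries (log2 2.77, 95% interval 2.08 to 3.46, edgeR adjusted p = 0.0337). Total RNA of U251 held 183 and 222 CPM in the control libraries and 458 and 516 CPM in the miR-137 libraries (log2 1.30, 95% interval 1.00 to 1.61, edgeR adjusted p = 5.69e-06). The control and miR-137 libraries did not overlap in either fraction, and the difference between the 2 rises, PABP-bound minus total, did not pass its test (log2 1.42, 95% interval 0.72 to 2.12, edgeR adjusted p = 0.101). PABP-bound RNA of U343 held 165 and 159 CPM in the control libraries and 1050.1 and 998 CPM in the miR-137 libraries (log2 2.66, 95% interval 2.41 to 2.92, edgeR adjusted p = 2.19e-06). In U343 total RNA the values were 97.8 and 113 CPM in the control libraries and 103 and 638 CPM in the miR-137 libraries, so that replicate 1 was near the controls and replicate 2 far above them (log2 1.82, 95% interval -0.47 to 4.10, edgeR adjusted p = 0.205).

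The same library that lacked the WARS rise lacked the interferon-stimulated rise. Over the 12 interferon-stimulated genes listed, the median log2 ratio to the control mean was -0.14 in U343 RNASeq miR-137 replicate 1, with 1 of 12 over 1, and 4.55 in replicate 2, with 11 of 12 over 1. In the other 6 miR-137 libraries the median ran from 4.31 to 6.16. By edgeR 9, 12, 11 and 0 of the 12 were higher in U251 RIPSeq, U251 RNASeq, U343 RIPSeq and U343 RNASeq, and in the last 11 were higher without miR-137 replicate 1, whereas without replicate 2 there were 6 lower and 2 higher. Without miR-137 replicate 1, WARS in U343 total RNA had log2 2.59, edgeR adjusted p = 5.28e-05; without replicate 2 it had log2 -0.019, edgeR adjusted p = 0.916. What set the libraries apart was not tested. Of WARS, replicate 2 held more than replicate 1 by 2.63 on the log2 scale, and for the other 34 members this difference ran from -0.41 (NARS2) to 0.24 (LARS2). Their median ratio to the controls was -0.012 in replicate 1 and -0.11 in replicate 2. ATF3, a stress-induced transcription factor, was at 77.4 and 160.4 CPM in the 2 miR-137 libraries against 18.7 and 19.1 CPM in the controls.

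**Figure D2:**
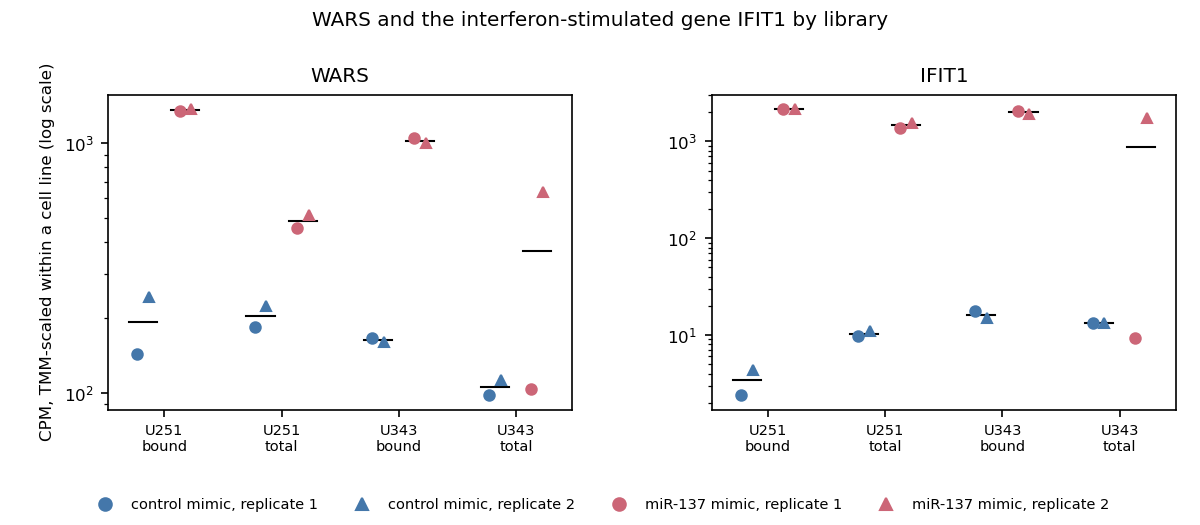
The points are CPM values of single libraries on a log axis (circles replicate 1, triangles replicate 2, blue control mimic, red miR-137 mimic), with a black line at each group's mean, by cell line and RNA fraction (bound is PABP-bound). In U343 total RNA the red circle of replicate 1 sits at or below the controls' level for WARS and IFIT1, while in every other group both red points lie above both blue points.

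RefSeq gives 2 start regions for WARS (symbol WARS1 there), and windows of 300 bases, from 250 before to 50 after each start, were searched on both strands for the interferon-response letters (GAAA, any 2 bases, GAAA) and the gamma-activated letters TTCNNNGAA. The upstream window (GRCh38.p14, minus strand, chr14:100376278-100376577) held neither. The window of the second start (chr14:100375298-100375597) held both, in capitals here, the gamma-activated letters first and the interferon-response letters second, with no overlap between them.
WARS second start: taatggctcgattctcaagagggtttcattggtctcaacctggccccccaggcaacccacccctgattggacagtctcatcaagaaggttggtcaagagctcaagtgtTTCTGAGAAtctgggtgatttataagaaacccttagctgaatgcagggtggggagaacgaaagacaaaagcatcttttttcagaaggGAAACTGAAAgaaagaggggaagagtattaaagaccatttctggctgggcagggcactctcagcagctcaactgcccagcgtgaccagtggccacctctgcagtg
The interferon-response letters were found in 3.57% of all 35116 RefSeq windows of this length and, among the 30 members with a window, in WARS and EARS2. TTCNNNGAA was found in 7.66% of all windows and in those of 5 members, WARS, CARS, PARS2, TARS and WARS2. A match describes the letters of a window and is no evidence of binding. AARS2, DARS, LARS and YARS were among those without a window.

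QARS, the glutaminyl enzyme of the multi-synthetase complex (hg18 chr3:49108369-49117175), was lower in 3 comparisons and had values below the controls in all 4. Its values were 188 and 194 against 88.2 and 89.7 CPM in U251 PABP-bound RNA, given as controls against miR-137 libraries (log2 -1.18, edgeR adjusted p = 0.0984). Total RNA of U251 gave 181 and 164 against 70.5 and 89.5 CPM (log2 -1.07, edgeR adjusted p = 2.46e-05). In U343 the values were 226 and 232 against 124 and 115 CPM in PABP-bound RNA (log2 -0.93, edgeR adjusted p = 8.13e-05) and 243 and 275 against 156 and 155 CPM in total RNA (log2 -0.73, edgeR adjusted p = 0.0196). No miR-137 library reached a control in any experiment, and in U251 RIPSeq the difference missed the threshold by edgeR and passed it by DESeq2. In U343 RNASeq the fall held without either miR-137 library and was lost without control replicate 1 (log2 -0.81, edgeR adjusted p = 0.171) or control replicate 2 (log2 -0.63, edgeR adjusted p = 0.224).

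Other synthetases of the multi-synthetase complex fell in U251 total RNA, where 6 of its 8 (EPRS, IARS, KARS, LARS, QARS and RARS) were lower and none higher. Of all genes, 29.0% were lower there and 28.7% higher. The median over the 8 was -0.85. IARS, the isoleucyl enzyme, was at 637 and 729 CPM in the control libraries and 316 and 295 CPM in the miR-137 libraries (log2 -1.12, 95% interval -1.43 to -0.82, edgeR adjusted p = 1.95e-05). KARS, the lysyl enzyme, was at 361 and 376 against 188 and 203 CPM (log2 -0.88, edgeR adjusted p = 7.21e-05). LARS, the leucyl enzyme, stood at 373 and 412 against 211 and 210.4 CPM (log2 -0.86, edgeR adjusted p = 1.02e-04), and RARS, the arginyl enzyme, at 409 and 460.4 against 223 and 251.5 CPM (log2 -0.84, edgeR adjusted p = 1.66e-04). All of these groups were separate, with no miR-137 library reaching a control. The same held there for MARS (log2 0.070), FARSA, HARS and TARS2, which did not pass the test. The share of all genes with separate groups was not counted. In U343 PABP-bound RNA the complex divided: EPRS, IARS, LARS, MARS and QARS were lower and DARS and KARS higher. Of all genes, 27.8% were lower there and 28.5% higher. IARS there was at 411 and 396 against 226 and 201 CPM (log2 -0.91, edgeR adjusted p = 1.85e-04), and EPRS, which joins glutamyl and prolyl activities in 1 protein, at 179 and 162 against 106 and 101 CPM (log2 -0.71, edgeR adjusted p = 3.98e-04). In U343 total RNA QARS was the 1 member of the complex that was lower and DARS the 1 that was higher. Of all genes, 11.7% were lower there and 8.31% higher. The median log2 change over the 8 was -0.16 without miR-137 replicate 1 and 0.014 without miR-137 replicate 2. Among the scaffold proteins, AIMP1 was lower in U251 RNASeq (log2 -0.72, edgeR adjusted p = 3.49e-04) and U343 RIPSeq (log2 -0.53, edgeR adjusted p = 9.70e-04), and AIMP2 and EEF1E1 passed the test in none of the 4.

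Outside the complex, NARS, the asparaginyl enzyme, was lower in 3 of the 4 comparisons: 154 and 177 against 91.8 and 97.1 CPM in U251 total RNA (log2 -0.77, edgeR adjusted p = 2.00e-04), 182 and 167 against 140.3 and 137.1 CPM in U343 PABP-bound RNA (log2 -0.32, edgeR adjusted p = 0.0146) and 153 and 158 against 117 and 117 CPM in U343 total RNA (log2 -0.40, edgeR adjusted p = 0.0459). GARS, the glycyl enzyme, was lower in U251 total RNA (log2 -0.43) and U343 PABP-bound RNA (-0.47). AARS and FARSB were lower in U343 RIPSeq alone among the 4 tests (-0.38 and -0.38), as was MARS of the complex (-0.25), and TARS in U251 RNASeq (-0.33). The complex and these genes account for the cytosolic members that fell. These were 9 of 17 in U251 RNASeq, 9 of 19 in U343 RIPSeq and 2 of 19 in U343 RNASeq. The shares of all genes lower were 29.0%, 27.8% and 11.7%, in that order.

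Mitochondrial members gave 8 of 16 lower and 4 higher in U251 RNASeq and 6 lower and 3 higher in U343 RIPSeq. In U343 RNASeq 4 were lower and none higher. Of all genes, 29.0% were lower and 28.7% higher in U251 RNASeq, 27.8% and 28.5% in U343 RIPSeq, and 11.7% and 8.31% in U343 RNASeq. In U343 RNASeq the median log2 change of the mitochondrial members was -0.16 without miR-137 replicate 1 and -0.067 without miR-137 replicate 2. CARS2, the mitochondrial cysteinyl enzyme (hg18 chr13:110091758-110156481), had the largest fall of all members in U251 total RNA, 54.2 and 53.9 CPM in the control libraries and 16.0 and 19.6 CPM in the miR-137 libraries (log2 -1.57, 95% interval -1.88 to -1.26, edgeR adjusted p = 1.15e-06). Its PABP-bound RNA in U343 was at 155 and 161 against 107 and 90.4 CPM (log2 -0.67, edgeR adjusted p = 8.07e-04), and in U343 total RNA, at 113 and 115 against 112 and 88.3 CPM, the change did not pass the test (log2 -0.17, edgeR adjusted p = 0.447). The groups did not overlap, although 1 miR-137 library of U343 total RNA was next to the controls. WARS2, the mitochondrial counterpart of WARS, was lower in 3 comparisons: 40.6 and 43.0 against 23.7 and 23.1 CPM in U251 total RNA (log2 -0.80, edgeR adjusted p = 2.40e-04), 46.9 and 45.7 against 31.9 and 29.0 CPM in U343 PABP-bound RNA (log2 -0.60, edgeR adjusted p = 8.03e-04) and 37.5 and 36.1 against 22.5 and 24.3 CPM in U343 total RNA (log2 -0.64, edgeR adjusted p = 0.0208). Both U343 RNASeq miR-137 libraries lay below both controls for WARS2, including replicate 1, which lacked the interferon-stimulated rise. The U343 RNASeq call of WARS2 was lost without either control, with log2 -0.70 to -0.60 over the fits that left out 1 library. IARS2, the mitochondrial isoleucyl enzyme, was at 295 and 274 against 157 and 136.8 CPM in U343 PABP-bound RNA (log2 -0.95, edgeR adjusted p = 1.66e-04). RARS2 was lower in U251 RNASeq (-0.73) and U343 RIPSeq (-0.56), and EARS2, NARS2 and YARS2 in U251 RNASeq (-0.50, -0.48 and -0.42).

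Synthetases have catalytic domains of 2 unrelated folds, called class I and class II, and EPRS, which holds both, is left out of this count. In U343 RIPSeq 9 of 16 class I genes were lower and 1 higher, with a median log2 change of -0.34. Of 18 class II genes there, 5 were lower and 6 higher, with a median of -0.017. Of all genes, 27.8% were lower and 28.5% higher. In U251 RNASeq the counts were 9 lower and 3 higher of 15 class I genes and 7 lower and 2 higher of 17 class II genes. The medians were -0.50 and -0.18, and of all genes 29.0% were lower and 28.7% higher. In U343 RNASeq, with 11.7% of all genes lower and 8.31% higher, 3 class I genes were lower and none higher. Class II there gave 3 lower and 2 higher. Without miR-137 replicate 1 there were 6 lower and 2 higher in class I and 3 and 3 in class II, and without miR-137 replicate 2 there were 5 and none in class I and 3 and 4 in class II. The difference between the classes was not tested.

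Besides WARS, HARS, DARS and PARS2 were higher in 2 comparisons each. HARS, the histidyl enzyme of the cytosol, was at 109.8 and 116 against 177 and 190.4 CPM in U343 PABP-bound RNA (log2 0.71, edgeR adjusted p = 3.85e-04) and 102 and 102 against 139.5 and 136 CPM in U343 total RNA (log2 0.44, edgeR adjusted p = 0.0369). DARS, the aspartyl enzyme of the cytosol, was at 123 and 114 against 161 and 155 CPM in U343 PABP-bound RNA (log2 0.42, edgeR adjusted p = 0.00396) and 109 and 99.4 against 139 and 143 CPM in U343 total RNA (log2 0.44, edgeR adjusted p = 0.0452). PARS2, the mitochondrial prolyl enzyme and one of the 2 lowest members by reads, was at 12.7 and 11.96 against 18.0 and 19.2 CPM in U251 total RNA (log2 0.63, edgeR adjusted p = 0.00319) and 8.88 and 9.90 against 12.9 and 14.3 CPM in U343 PABP-bound RNA (log2 0.55, edgeR adjusted p = 0.00564). The U343 RNASeq calls of HARS and DARS were lost without either control. SARS2 was higher in U343 RIPSeq (log2 0.33), with the overlap with MRPS12 given above, and LARS2 in U251 RNASeq (0.33). The plot of levels by library shows 8 of these genes.

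**Figure D3:**
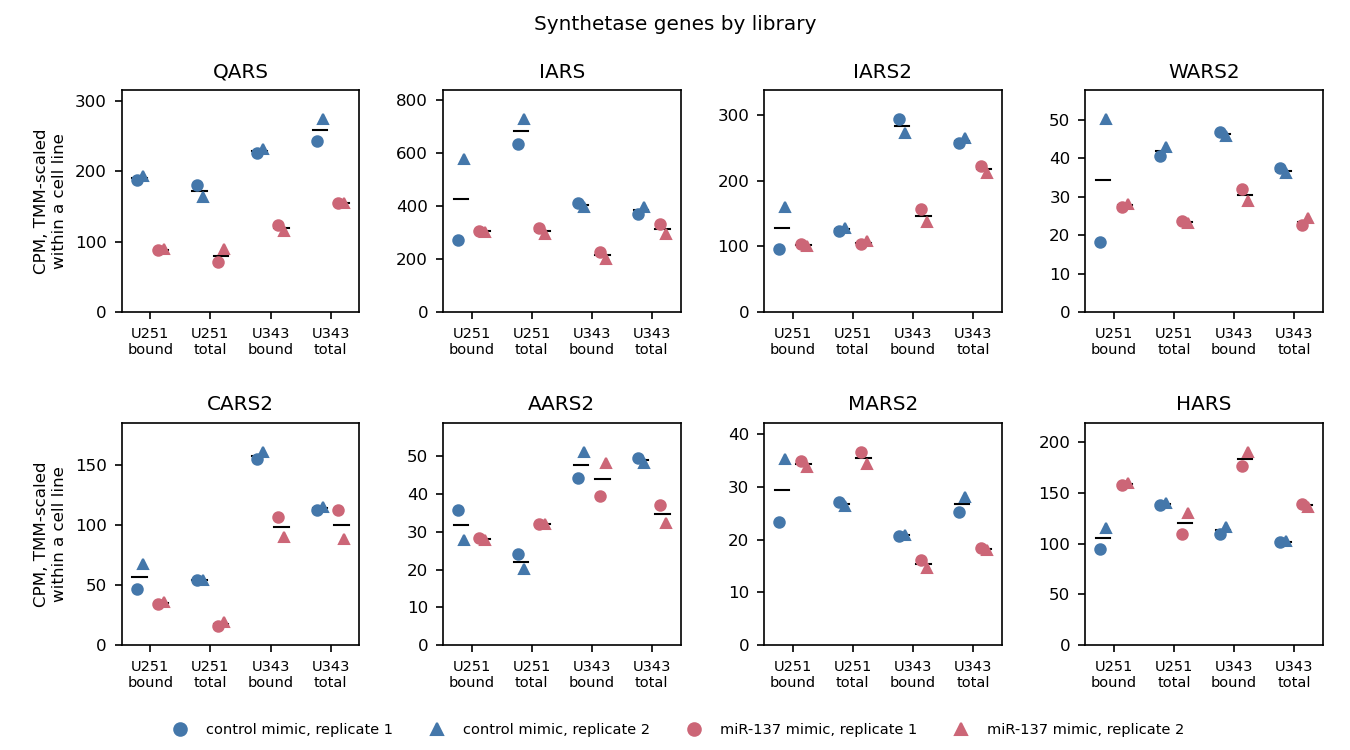
Each panel gives one gene's CPM in all 16 libraries on an axis from 0 (circles replicate 1, triangles replicate 2, blue control mimic, red miR-137 mimic, black line the group mean). QARS is lower with miR-137 in all 4 experiments, the U251 bound controls of IARS and WARS2 lie far apart, and AARS2 and MARS2 rise in U251 total RNA and fall in U343 total RNA.

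AARS2, MARS2, FARS2 and KARS passed the test in opposite directions in 2 comparisons. AARS2, the mitochondrial alanyl enzyme, was at 24.1 and 20.2 against 32.0 and 32.0 CPM in U251 total RNA (log2 0.57, edgeR adjusted p = 0.00463) and 49.5 and 48.3 against 37.0 and 32.3 CPM in U343 total RNA (log2 -0.49, edgeR adjusted p = 0.0461). MARS2, the mitochondrial methionyl enzyme, was at 27.2 and 26.5 against 36.7 and 34.4 CPM in U251 total RNA (log2 0.44, edgeR adjusted p = 0.0133) but 25.3 and 28.2 against 18.5 and 18.1 CPM in U343 total RNA (log2 -0.54, edgeR adjusted p = 0.0394) and 20.8 and 20.8 against 16.1 and 14.6 CPM in U343 PABP-bound RNA (log2 -0.43, edgeR adjusted p = 0.00652). FARS2, the mitochondrial phenylalanyl enzyme, was at 31.2 and 31.8 against 19.7 and 20.0 CPM in U251 total RNA (log2 -0.63, edgeR adjusted p = 0.00173) and 22.3 and 23.2 against 30.3 and 29.0 CPM in U343 PABP-bound RNA (log2 0.39, edgeR adjusted p = 0.00656). In all of these the miR-137 and control libraries did not overlap, which also held for members not called, such as FARSA and TARS2 in U343 PABP-bound RNA. KARS, lower in U251 total RNA, was at 304 and 325 against 396 and 372 CPM in U343 PABP-bound RNA (log2 0.30, edgeR adjusted p = 0.0291). The calls of AARS2 and MARS2 in U343 RNASeq were lost without either control, as were those of MARS2 in U251 RNASeq without control replicate 2 or miR-137 replicate 1, of AARS2 there without control replicate 2, and of KARS in U343 RIPSeq without control replicate 1, control replicate 2 or miR-137 replicate 1.

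CARS, FARSA, HARS2, SARS, TARS2 and YARS passed the test in none of the 4 comparisons. TARS2, for example, was at 42.1 and 42.7 against 43.8 and 44.8 CPM in U343 PABP-bound RNA (log2 0.071, 95% interval -0.11 to 0.26). The 95% interval of the change lay within 1 on the log2 scale either way for 23 of 33 members in U251 RNASeq, 30 of 35 in U343 RIPSeq, 33 of 35 in U343 RNASeq and 10 of 33 in U251 RIPSeq.

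The change in total RNA differed between the cell lines for 11 of the 33 members in both tables, beside 12.7% of all genes with a lower and 12.5% with a higher change in U343. For CARS2 the change in U343 exceeded that in U251 by 1.39 (edgeR adjusted p = 0.00315) on the log2 scale, for KARS by 1.11 (edgeR adjusted p = 0.00311) and for FARS2 by 1.06 (edgeR adjusted p = 0.00488). RARS, IARS, LARS, RARS2 and HARS also had the higher change in U343, by 0.86, 0.82, 0.72, 0.64 and 0.61. Of these 8, 4 (IARS, KARS, LARS and RARS) belong to the multi-synthetase complex, which holds 8 of the 33 members. AARS2, MARS2 and LARS2 had the lower change in U343, with differences of -1.07 (edgeR adjusted p = 0.00497), -0.99 (edgeR adjusted p = 0.00495) and -0.65 (edgeR adjusted p = 0.0309). QARS and WARS2, which fell in both lines, were not among them, with differences of 0.34 and 0.15 and 95% intervals of -0.11 to 0.79 and -0.21 to 0.50. The cell lines were also prepared with different cDNA kits, and line and kit cannot be told apart. Fewer members had the higher change without U251 control replicate 2 or either U343 control, and more had it without U343 miR-137 replicate 1.

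**Figure D4:**
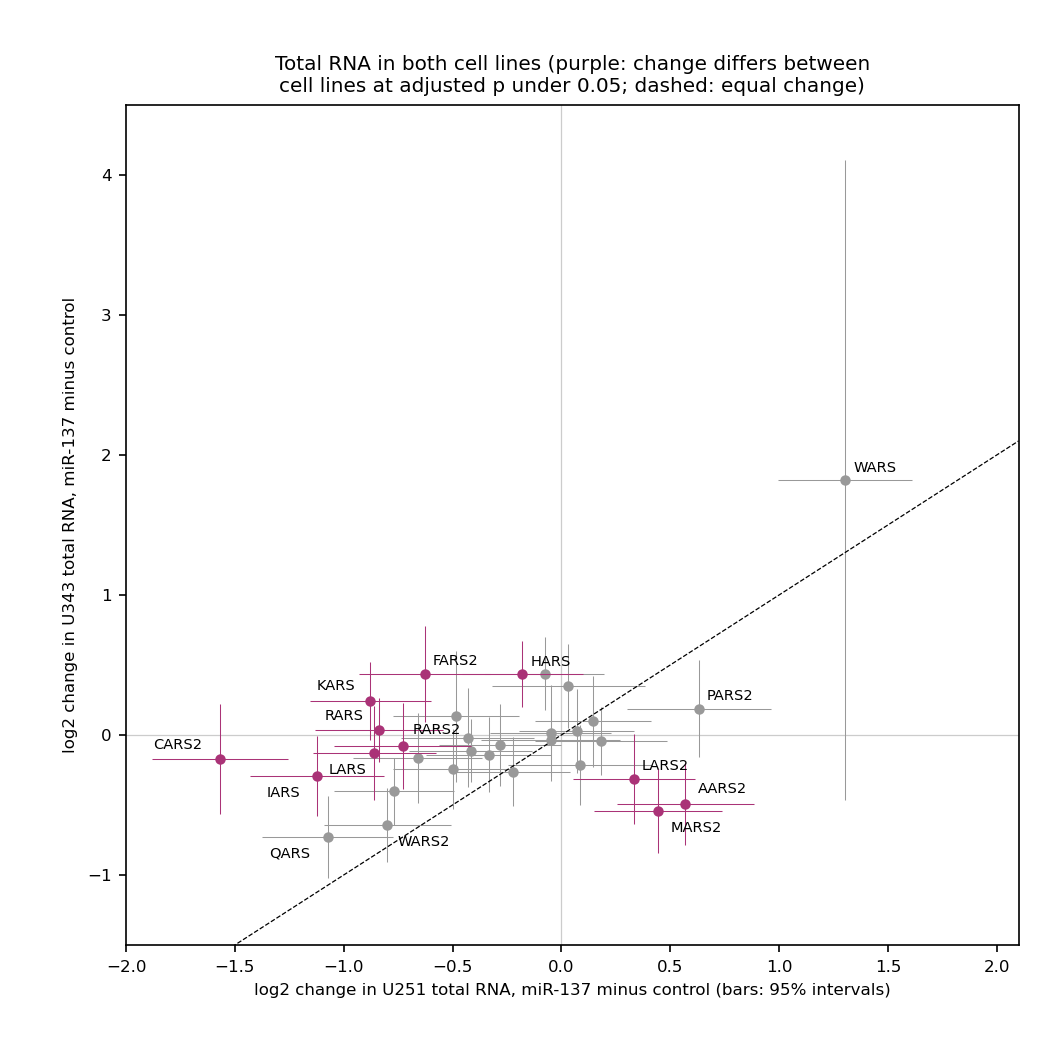
Each point is a member's log2 change with miR-137 in total RNA, U251 on the horizontal and U343 on the vertical axis, with 95% intervals, and purple points are those whose change differed between the lines. CARS2, KARS and FARS2 lie left of 0 and above the dashed line of equal change, AARS2 and MARS2 lie right of 0 and below it, and the interval of WARS in U343 spans 0.

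In PABP-bound RNA 2 of the 33 shared members had an unadjusted p under 0.05 for a difference between the lines, and DESeq2 called 2 higher in U343. No shares of all genes are given for these counts. By edgeR none differed at the adjusted threshold, beside 1.22% of all genes lower and 2.06% higher. The U251 RIPSeq controls decide this count, since members passed in both directions when either control was left out. Whether the change in PABP-bound RNA differed from that in total RNA was tested within each line, and again no member passed by edgeR, beside 0.0281% lower and 0.106% higher of all genes in U251 and 0% and 0.00649% in U343. At an unadjusted p under 0.05 there were 7 members in U251 and 9 in U343. DESeq2 called 2 with the higher change in PABP-bound RNA in U251 and 3 with the lower in U343. The shares of all genes by DESeq2 and at this unadjusted level are not given, so these counts are not read against them. In U343 the 8 members with the lower change in PABP-bound RNA at that level ran from IARS2 (log2 -0.68, 95% interval -1.02 to -0.35) to GARS (-0.44, -0.83 to -0.057), with edgeR adjusted p-values of 0.196 and 0.244. These counts also depended on single libraries, and members passed without U343 RNASeq miR-137 replicate 2 and without U251 RIPSeq control replicate 2.

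PABP-bound RNA was also set against total RNA within each mimic, which shows how far a gene's share of the recovered RNA departs from its share of total RNA. GARS was the member most enriched in the PABP-bound RNA of the controls of both lines. In U251 controls it was at 480.2 and 577 CPM in total RNA and 1247 and 1451 CPM in PABP-bound RNA (log2 1.48, 95% interval 0.81 to 2.14, edgeR adjusted p = 0.0292), the only member of 33 to pass, beside 6.14% of genes lower and 7.87% higher. With the miR-137 mimic it was at 375 and 389 CPM in total RNA and 1026 and 1101 CPM in PABP-bound RNA (log2 1.44, 95% interval 1.24 to 1.65, edgeR adjusted p = 4.42e-06). In U343 controls it was at 222 and 269 CPM in total RNA and 440.0 and 422 CPM in PABP-bound RNA (log2 0.84, 95% interval 0.59 to 1.08, edgeR adjusted p = 6.48e-04), and with miR-137 at 247 and 234 CPM in total RNA and 322 and 299 CPM in PABP-bound RNA (log2 0.40, 95% interval 0.080 to 0.73, edgeR adjusted p = 0.0867). The bound libraries were the higher ones in all 4 settings. The call in U251 controls was lost without either RNASeq control.

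In U343 controls 14 of 35 members were higher in PABP-bound RNA and 3 lower, beside 24.4% of all genes higher and 24.2% lower. MARS, the methionyl enzyme of the cytosol, was at 204 and 229 CPM in total RNA and 346 and 346 CPM in PABP-bound RNA (log2 0.70, 95% interval 0.50 to 0.90, edgeR adjusted p = 5.22e-04). WARS was at 97.8 and 113 CPM in total RNA and 165 and 159 CPM in PABP-bound RNA (log2 0.65, 95% interval 0.43 to 0.86, edgeR adjusted p = 0.00106). EPRS, MARS2 and CARS were the 3 lower members (log2 -0.35, -0.34 and -0.26), and none of these 3 was called without RNASeq control replicate 2 or RIPSeq control replicate 2. With miR-137, U343 gave 3 members lower (EPRS, LARS and CARS) and 1 higher (YARS), beside 8.78% and 9.29%. EPRS was at 209 and 181 CPM in total RNA and 106 and 101 CPM in PABP-bound RNA (log2 -0.88, 95% interval -1.19 to -0.56, edgeR adjusted p = 0.0190). None of the 4 held without either RIPSeq library, and more members passed, in both directions, when either RNASeq miR-137 library was left out.

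In U251 with miR-137, 9 members were higher in PABP-bound RNA and 6 lower, beside 32.4% of all genes higher and 33.5% lower. WARS was at 458 and 516 CPM in total RNA and 1341 and 1372 CPM in PABP-bound RNA (log2 1.45, 95% interval 1.24 to 1.65, edgeR adjusted p = 5.18e-06), and CARS2 at 16.0 and 19.6 CPM in total RNA and 34.0 and 36.2 CPM in PABP-bound RNA (log2 0.95, 95% interval 0.70 to 1.21, edgeR adjusted p = 1.09e-04). LARS2, the mitochondrial leucyl enzyme, was the furthest below, at 65.7 and 60.6 CPM in total RNA and 39.6 and 40.8 CPM in PABP-bound RNA (log2 -0.68, 95% interval -0.89 to -0.47, edgeR adjusted p = 2.20e-04), and LARS was also lower (log2 -0.42). Fewer members were lower without either RIPSeq miR-137 library, and more were higher without RNASeq miR-137 replicate 2. In U251 controls more members passed, in both directions, when either RIPSeq control was left out.

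**Figure D5:**
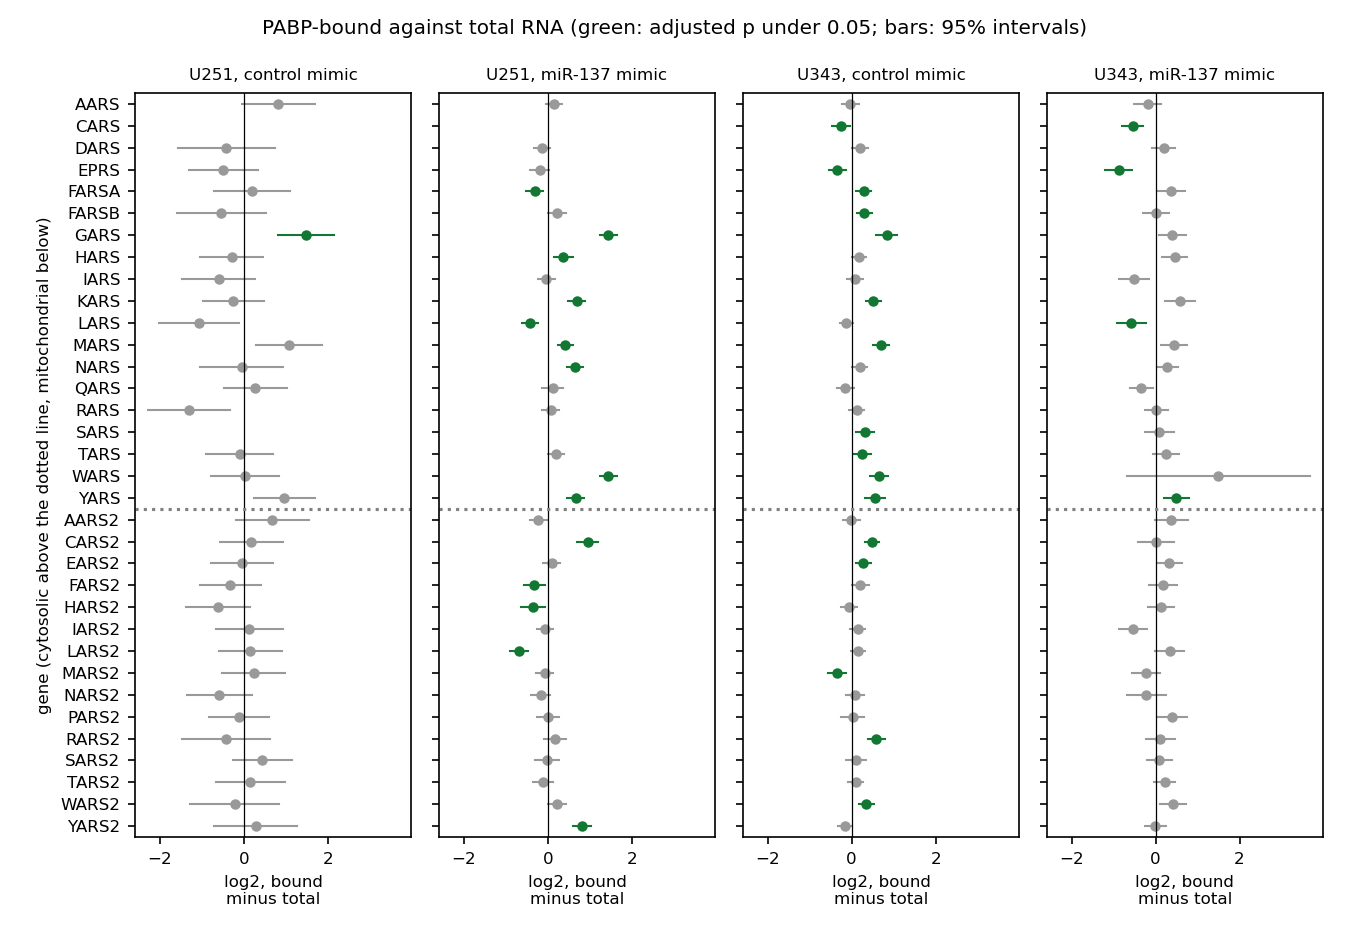
Points give the log2 difference of PABP-bound minus total RNA of single members in one cell line and mimic, with 95% intervals as bars, green where the edgeR adjusted p was under 0.05, and 2 libraries against 2. GARS lies right of 0 in all 4 panels, at 1.48, 1.44, 0.84 and 0.40, and the intervals in the U251 control panel are wide.

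The members were also put to the study's own rule. In it, Fisher's exact test must give an odds ratio above 2 with an adjusted p below 0.001 in all 4 control and miR-137 pairings. CARS2 passed as lower in U251 RNASeq, beside 2.21% of all genes, and no member passed in U251 RIPSeq (1.49%) or U343 RNASeq (2.88%). In U343 RIPSeq 3.40% of all genes passed as lower. With the rule mirrored for rises, WARS passed in U251 RIPSeq, U251 RNASeq and U343 RIPSeq (3.47%, 6.14% and 4.83% of all genes) and no member in U343 RNASeq (1.51%). Such a rule tests read numbers of single libraries, so the replicate spread enters it only through the 4 pairings. QARS did not pass in any experiment, with odds ratios of control over miR-137 of 1.89 to 2.46 in U251 RIPSeq, 1.46 to 2.13 in U251 RNASeq, 1.87 to 1.93 in U343 RIPSeq and 1.56 to 1.83 in U343 RNASeq.

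The amino-acid-response letters TGATGNAA, searched on both strands, were found in 8 of the 39 windows of members (20.5%), each in a different gene, and in 3.62% of all windows. The 8 genes were AARS, CARS, GARS, IARS, MARS, NARS, TARS and YARS2, and all but YARS2 are cytosolic. The stretches of 7 of them are shown with the matched letters in capitals and 12 bases on either side (RefSeq, GRCh38.p14, strand of the gene), since 6 of the 8 (all but GARS and YARS2) hold TTGCATCA or its reverse complement.
AARS (chr16:70289674-70289705, minus strand): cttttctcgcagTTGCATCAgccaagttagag
CARS (chr11:3057406-3057437, minus strand): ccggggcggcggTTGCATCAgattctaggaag
GARS (chr7:30594833-30594864, plus strand): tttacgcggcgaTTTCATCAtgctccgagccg
MARS (chr12:57488052-57488083, plus strand): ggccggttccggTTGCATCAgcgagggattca
NARS (chr18:57621803-57621834, minus strand): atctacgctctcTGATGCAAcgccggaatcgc
TARS (chr5:33440955-33440986, plus strand): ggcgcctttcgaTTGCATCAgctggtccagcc
YARS2 (chr12:32756075-32756106, minus strand): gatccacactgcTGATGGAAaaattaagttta
In U251 RNASeq 5 of the 7 holders measured there were lower and none higher, beside 29.0% and 28.7% of all genes. In U343 RIPSeq 5 of 8 were lower and none higher, beside 27.8% and 28.5%. Of the members with a window but without the letters, 10 of 21 were lower and 4 higher in U251 RNASeq, and 8 of 22 lower and 6 higher in U343 RIPSeq. In U343 RNASeq 1 holder, NARS, was lower and none higher, beside 11.7% and 8.31% of all genes. The holders' median there was -0.11 without miR-137 replicate 1 and -0.14 without miR-137 replicate 2. The median changes of the holders were -0.42, -0.42, -0.29 and -0.13 in U251 RIPSeq, U251 RNASeq, U343 RIPSeq and U343 RNASeq, against -0.090, -0.28, -0.12 and -0.040 for the others. In U251 RIPSeq the holders' median was -0.35 without control replicate 1, where all cytosolic and all mitochondrial members had medians of -0.33 and -0.37. Without control replicate 2 the holders' median was 0.074, and those of cytosolic and mitochondrial members were 0.38 and -0.042. These are descriptions of the letters, without a test of their part in the changes.

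Other genes of the amino acid response were counted in the same way. Of the 28 listed and tested, 10 were lower and 11 higher in U251 RNASeq, beside 29.0% and 28.7% of all genes. In U343 RIPSeq 14 were lower and 4 higher, beside 27.8% and 28.5%. The medians were 0.11 and -0.30. In U251 RIPSeq none passed by edgeR, beside 0.263% and 0.944% of all genes. The median was -0.75, with 11 lower and none higher at an unadjusted p under 0.05, for which no share of all genes is given. By DESeq2 6 were lower, beside 3.79% of all genes. That count rests on the control pair. Without control replicate 1 the median was -0.64, with 23 of 28 below 0, and without control replicate 2 it was -0.52, with 21 below 0. Of 29 in U343 RNASeq 3 were lower and 2 higher, beside 11.7% and 8.31% of all genes, and more passed when either miR-137 library was left out. MTHFD2, a mitochondrial folate enzyme, was lower in U251 RNASeq (log2 -1.71, edgeR adjusted p = 3.64e-07), U343 RIPSeq (log2 -2.01, edgeR adjusted p = 4.79e-06) and U343 RNASeq (log2 -1.93, edgeR adjusted p = 0.00647). PHGDH, the first enzyme of serine synthesis, was at 124 and 146 against 30.1 and 36.0 CPM in U343 total RNA (log2 -2.02, edgeR adjusted p = 0.00711). ATF3 was higher in the same 3 comparisons, with log2 changes of 1.01, 2.84 and 2.66. ATF4 itself was higher in U251 RNASeq (0.64) but had -0.80 in U251 RIPSeq (edgeR adjusted p = 0.276). In the U343 fractions it had -0.16 and 0.11, and only the U251 RNASeq change passed the threshold.

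Further steps of charging and elongation were measured beside the synthetases, and the shares of all genes called are those given above for each comparison. In U251 RNASeq all 5 elongation factors of the cytosol listed (EEF1A1, EEF1B2, EEF1D, EEF1G and EEF2) were lower, led by EEF1G (log2 -1.30) and EEF1B2 (-1.25), and for each of them the change differed between the cell lines. EEF1B2 and EEF1G were lower in U343 RIPSeq (-0.79 and -0.64), and EEF1B2 in U343 RNASeq (-0.40). All 4 mitochondrial factors (TUFM, TSFM, GFM1 and GFM2) were lower in U343 RIPSeq, with log2 changes of -0.49 to -0.24, whereas in U251 RNASeq TUFM and GFM2 were lower and GFM1 higher. Of the other genes of tRNA charging listed, 4 of 8 were lower in U251 RNASeq (AARSD1, DTD1, QRSL1 and TARSL2), 1 of 9 was lower and 2 higher in U343 RIPSeq, and 1 of 9 was higher in U343 RNASeq, or 2 without miR-137 replicate 2. DTD1, which clears D-amino acids from tRNA, was lower in U251 RNASeq (-1.14) and U343 RIPSeq (-0.61). PSTK, a kinase of the selenocysteine tRNA, was higher in U343 RIPSeq (0.83) and U343 RNASeq (0.95).

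Control levels of the members differed between the cell lines, which is given as a description because each line had its own kit and scaling. In both fractions AARS, CARS2, IARS2 and LARS2 were more than 1 log2 unit higher in U343, and GARS and TARS more than 1 lower. The median log2 difference, U343 minus U251, was -0.47 in RNASeq and -0.026 in RIPSeq over the 33 shared members.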

How the data were processed

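The deposited tables hold counts of reads per gene, 1 table per library, which the authors made by aligning short reads to hg18 with RMAP and counting them on RefSeq transcripts, with the isoforms of a gene merged into 1 model. How reads with several matches were treated is not given in the sources used here. U251 cDNA was primed with random hexamers and U343 cDNA was made with the TotalScript kit, and neither marks strand. Of 1 duplicated symbol in U251 (SLC35E2), the first line was kept.

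Counts were tested with edgeR 4.0.16 (R 4.3.3; TMM factors, filterByExpr, quasi-likelihood test), fitted on the 4 libraries of an experiment, or 8 for differences between changes, with p-values adjusted over all genes tested by Benjamini-Hochberg and called under 0.05. DESeq2 1.42.0, other scalings and filters, a replicate block, a joint fit of 8 libraries and leaving out each library were the alternatives. A group left with 1 library was assumed to vary like the other group. Fisher's exact test was two-sided (SciPy 1.17.1). The edgeR, DESeq2 and Fisher code was tested on simulated data. The members, gene lists and tests were chosen with earlier results of these data known. Full values were given for WARS, the 3 largest falls and rises called in each comparison, members called in opposite directions or past a test between changes, the 3 most extreme members each way of bound against total RNA, and up to 4 genes of other lists; where another member is named, its values were seen first. VARS and VARS2 were not analysed here, and some other items are not reported here.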

Additional observations from a re-analysis of the deposited data

Results flagged for a closer look

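Of the 33 shared members, 11 had a change with miR-137 in total RNA that differed between U251 and U343. These calls are from the edgeR interaction test at an adjusted p under 0.05. Of all genes tested, 12.7% had a lower and 12.5% a higher change in U343. All values here are log2. CARS2 changed by -1.57 in U251 and -0.17 in U343, a difference of 1.39. KARS changed by -0.88 in U251 and 0.24 in U343, a difference of 1.11, and FARS2 changed by -0.63 in U251 and 0.44 in U343, a difference of 1.06. AARS2 changed by 0.57 in U251 and -0.49 in U343, a difference of -1.07, and MARS2 changed by 0.44 in U251 and -0.54 in U343, a difference of -0.99. These 5 passed the test in all 8 fits that left out 1 library.

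The other 6 lost the call in at least 1 of those 8 fits. RARS changed by -0.84 in U251 and 0.033 in U343, a difference of 0.86, lost only without U343 control replicate 2. IARS changed by -1.12 in U251 and -0.29 in U343, a difference of 0.82, lost in 3 fits. LARS changed by -0.86 in U251 and -0.13 in U343, a difference of 0.72, lost in 4. RARS2 changed by -0.73 in U251 and -0.079 in U343, a difference of 0.64, lost in 5 and with upper-quartile scaling, and HARS changed by -0.18 in U251 and 0.44 in U343, a difference of 0.61, lost in 5. LARS2 changed by 0.33 in U251 and -0.31 in U343, a difference of -0.65, lost in 6. Cell line and cDNA kit cannot be told apart.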

How the results depend on the processing

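With 2 libraries a group, single libraries decide several counts, the U251 RIPSeq controls differ widely, and lower counts such as those of PARS2 and SARS2 (157 to 549 reads where they were the lowest member) limit what can be seen. Of the values for single members under the alternatives, 551 kept direction and side of the threshold, 89 lost the call, 14 gained it and 5 reversed. The reversals were AARS2, KARS and MARS2 in U251 RIPSeq without control replicate 1, over leave-outs of log2 -0.45 to 0.037, -0.072 to 0.38 and -0.013 to 0.47, AARS2 in U343 RIPSeq without miR-137 replicate 1 (-0.28 to 0.033) and WARS in U343 RNASeq without miR-137 replicate 2 (-0.019 to 2.59). Except where a library was left out or fewer genes were tested, the cause was not tested. Shares of all genes are given only for some of the fits that left out a library. Member counts in the others are not read against such shares. For miR-137 against control, members lower in U251 RIPSeq became 1 by DESeq2 and 3 in the joint fit of 8 libraries, and those higher 0 without a filter and 2 in the joint fit. In U251 RNASeq the joint fit gave 5 lower and 2 higher. In U343 RNASeq there were 3 lower with upper-quartile scaling, and 0 higher without a filter and 4 in the joint fit. For bound against total RNA in U251 controls, DESeq2 gave 1 lower and 3 higher, and no filter 0 higher. In U343 with miR-137, DESeq2 gave 6 lower and 5 higher, and RLE scaling, upper-quartile scaling and no filter each gave 0 higher. DESeq2 called 2 members with a higher difference between fractions in U251, 3 with a lower one in U343, and 2 higher between cell lines in RIPSeq. For the Fisher rule, an odds ratio over 1.5 gave 1, 2, 6 and 2 members lower in U251 RIPSeq, U251 RNASeq, U343 RIPSeq and U343 RNASeq and 4 higher in U251 RNASeq, and TMM-scaled totals gave 1 and 2 lower in the U251 experiments. Leaving out 1 library gave, lower and then higher, 0 to 22 and 1 to 17 in U251 RIPSeq, 13 to 18 and 2 to 5 in U251 RNASeq, 12 to 14 and 5 to 6 in U343 RIPSeq, and 0 to 9 and 0 to 5 in U343 RNASeq. For bound against total RNA it gave 0 to 16 and 0 to 8 in U251 controls, 1 to 9 and 7 to 15 with miR-137, 0 to 3 and 10 to 12 in U343 controls, and 0 to 7 and 0 to 6 with miR-137. Differences between fractions gave 0 to 6 and 0 to 17 in U251 and 0 to 8 and 0 to 1 in U343, and differences between lines 2 to 4 and 3 to 11 in RNASeq and 0 to 16 and 0 to 9 in RIPSeq. The Fisher rule gave 0 to 1 lower and 1 to 4 higher in U251 RIPSeq, 1 and 1 in U251 RNASeq, 1 and 1 in U343 RIPSeq, and 0 and 0 to 1 in U343 RNASeq.

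The libraries' replicate numbers are not stated to pair them. Deviations of same-numbered libraries correlated at -0.088, 0.037, 0.41 and 0.13 over genes in U251 RIPSeq, U251 RNASeq, U343 RIPSeq and U343 RNASeq, and for bound against total RNA at 0.20 and 0.14 in U251 and -0.26 and -0.049 in U343, controls first. With the replicate number as a block the counts lower and higher were 0 and 1, 18 and 5, 16 and 7, and 2 and 0 in those experiments. For bound against total RNA the block gave 2 and 1 in U251 controls, 6 and 10 with miR-137, 3 and 13 in U343 controls, and 0 and 0 with miR-137, and in the tests between lines 3 and 8 in RNASeq and 0 and 0 in RIPSeq.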
